A study of Mus musculus with 6 samples.

Results

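Complement is a cascade of plasma proteins and cell receptors, and 7 of its genes are described here in mouse macrophages: the 3 chains of C1q (C1qa, C1qb, C1qc), the central component C3, the receptors C3ar1 and C5ar1, and properdin (Cfp). They are 7 of 54532 genes in the deposited tables. They were chosen by the difference in FPKM between the 2 groups, which was already known, so their levels in those groups are given as a description, with no test. All 7 reached the mean of 1 FPKM (fragments per kilobase of exon and per M, or mega, assigned fragments) used to select 10843 genes for testing, the C1q chains through 1 group only.

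RNA came from immortalised bone marrow-derived macrophages (iBMDM), cultured marrow macrophages made to grow indefinitely with retroviruses that carry v-raf and v-myc. The WT group has 3 libraries from cells of wild-type mice, and the 4-1BBL KO group has 3 from cells of mice deficient in 4-1BBL, a TNF family ligand encoded by Tnfsf9. Every library, in either group, came from v-raf and v-myc cells given IL-4, the cytokine of alternative macrophage activation, at 10 ng/ml for 24 hours, so all values are levels after IL-4. The labels do not give the number of cell lines, mice or cultures behind each group, the age or sex of the mice, or the deleted part of Tnfsf9, so a p-value here speaks of library-to-library spread alone, possibly technical, and genotype cannot be told apart from a difference between lines.

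Depth, recovered from the FPKM, ranged over 20.7 to 22.3 M fragments in WT and 19.1 to 26.4 M in KO. Tnfsf9 itself was at 14.6, 10.4 and 12.05 FPKM in WT replicates 1 to 3 and at 10.7, 10.7 and 11.4 FPKM in KO replicates 1 to 3, which overlap (limma log2 fold change -0.15 ± 0.11 SE, Benjamini-Hochberg adjusted p = 0.273), so the transcript level does not check the label. Exons of an antisense gene, Gm11110, cover 14.9% of its exon length. Of 10 macrophage markers, 9 were expressed in both groups, and Mertk had 2 fragments in WT against 1197 in KO. Their summed level was 2523 to 2577 FPKM in WT and 1571 to 1614 FPKM in KO libraries, and of those 9 markers 2 were higher, 4 lower and 3 did not pass in KO. Of all tested genes 60.8% passed, 30.6% higher and 30.2% lower in KO, so nothing is read from these counts. The groups also differed in Y-linked transcripts: Ddx3y had 1 fragment in WT and 9.92 to 12.1 FPKM in KO libraries, Eif2s3y was at 0 in WT and at 9.70 to 10.9 FPKM in KO, and Uty and Kdm5d were also at 0 in WT and read in every KO library. Xist, which silences an X chromosome in female cells, was at 0 in all 6 libraries. A difference in the Y chromosome between the lines cannot be told apart from genotype in any result given here, that of the X-linked gene Cfp included. In bulk RNA, fewer expressing cells and less RNA per cell cannot be told apart.

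C1q is the recognition molecule of the classical pathway. It is assembled from equal numbers of A, B and C chains and, unlike most complement proteins, which the liver makes, it comes mainly from macrophages and related myeloid cells. C3 is the protein on which the classical, lectin and alternative routes converge: its cleavage leaves C3b on a target surface and frees the small peptide C3a. C3a is sensed by the receptor C3aR (C3ar1) and C5a by C5aR1 (C5ar1), both on myeloid cells, and properdin is a positive regulator that stabilises the C3 convertase of the alternative pathway.

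The 3 C1q genes were read in KO libraries and almost not at all in WT libraries. They lie side by side on the minus strand of mouse chromosome 4 (mm10), with C1qb (ENSMUSG00000036905) at 136880129 to 136886187, C1qc (ENSMUSG00000036896) at 136889804 to 136893065 and C1qa (ENSMUSG00000036887) at 136895917 to 136898803, a span of 18.7 kb. C1qb was at 0 FPKM in all 3 WT libraries and at 124.6, 116.5 and 106.8 FPKM in KO replicates 1 to 3. C1qc was also at 0 in all 3 WT libraries, and at 27.5, 29.6 and 27.7 FPKM in KO replicates 1 to 3. C1qa was at 0, 0.0927 and 0 FPKM in WT replicates 1 to 3 and at 20.99, 19.5 and 17.3 FPKM in KO replicates 1 to 3. For each chain every KO library was high and every WT library was at or next to 0.

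Against a floor of 3 fragments per WT library, C1qb was at least 901-fold higher in KO (115.9 ± 8.92 FPKM, SD, n = 3) and C1qc at least 389.8-fold higher (28.3 ± 1.17 FPKM, SD, n = 3). C1qa had 2 fragments in WT, in replicate 2 only, against 1319 in KO, a ratio of 651 with a 95% exact binomial counting interval of 179.8 to 5381. These floors and intervals cover counting error only. The stretch of 250 bases before the RefSeq start of C1qb is shown because this chain had the highest level. It is GRCm38.p6 chr4:136886201-136886450, minus strand, and the capitals mark TGCTGA, the core of the recognition element of Maf factors, and GAGGAA, the core bound by PU.1, the main macrophage transcription factor.
C1qb: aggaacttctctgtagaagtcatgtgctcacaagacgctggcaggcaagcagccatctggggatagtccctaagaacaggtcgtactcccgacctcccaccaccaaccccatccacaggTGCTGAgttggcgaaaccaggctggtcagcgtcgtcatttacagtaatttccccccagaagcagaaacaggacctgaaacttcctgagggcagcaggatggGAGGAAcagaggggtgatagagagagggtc
The Maf core starts 131 bases and the PU.1 core 30 bases upstream of the start.

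**Figure D1:**
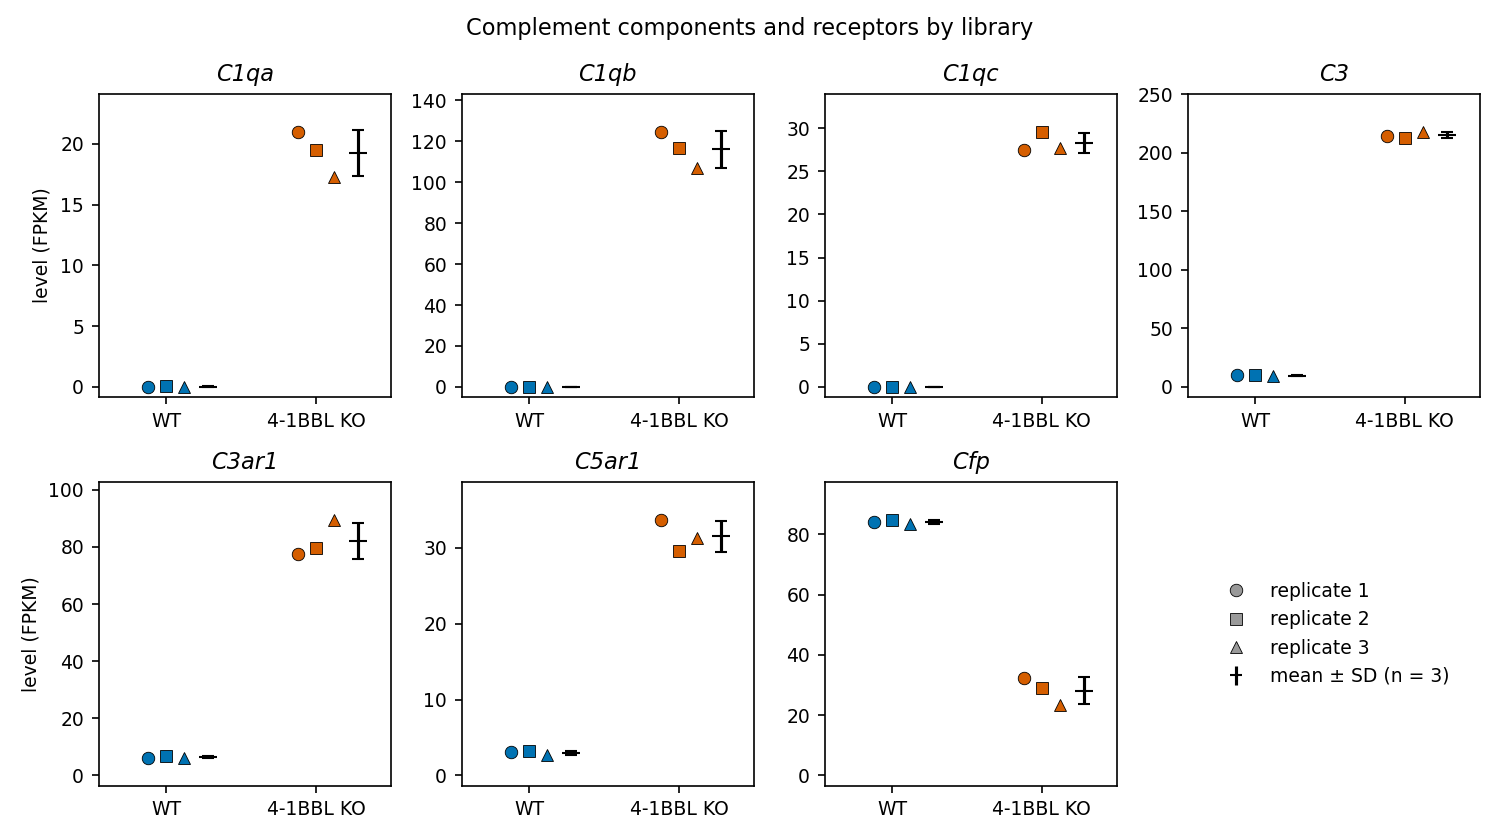
Level in FPKM (vertical axis, linear, a separate scale for each gene) of the 7 complement genes in the 3 WT and 3 4-1BBL KO libraries. Symbols are single libraries, with circles, squares and triangles for replicates 1, 2 and 3, and the bars give mean ± SD (n = 3); 6 genes are higher in KO, with C1qb at 0 in WT and 106.8 to 124.6 in KO, and Cfp is lower.

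The chains were not balanced in FPKM. As a share of the summed FPKM of the 3 chains, C1qb took 72.003%, 70.4% and 70.4% in KO replicates 1 to 3. C1qc took 15.9%, 17.9% and 18.3%, and C1qa 12.1%, 11.8% and 11.4% in the same libraries. The mean shares were 70.9 ± 0.952% for C1qb, 17.3 ± 1.28% for C1qc and 11.8 ± 0.370% for C1qa (SD, n = 3), and their ranges do not overlap, so the order of the chains was the same in every KO library. The ratio of C1qb to C1qa was 6.03 ± 0.129 and that of C1qb to C1qc 4.11 ± 0.374 (SD, n = 3). These SDs do not cover a difference in how well each gene is read that all libraries share, which was not measured.

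The share of C1qc depends on the length by which its fragments are divided. The length that fits the deposited values is 1931 bases for C1qc, the joined exons of all its annotated transcripts, while its longest coding transcript has 1203 bases. For C1qa and C1qb both lengths are 1040 and 1088 bases. With the coding transcript length, an alternative chosen after the values were seen, C1qc was at 45.3 ± 1.87 FPKM and took 25.2 ± 1.70%, C1qb took 64.2 ± 1.32% and C1qa 10.6 ± 0.406% (SD, n = 3). In fragments, with no correction for length, the shares were 62.8% for C1qb, 27.2% for C1qc and 9.96% for C1qa. C1qb held the largest share on all 3 scales, and the ratio of C1qc to C1qa moved from 1.48 ± 0.152 to 2.37 ± 0.244 and 2.74 ± 0.282. In WT no balance can be given, since 2 fragments of C1qa were all that was read.

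**Figure D2:**
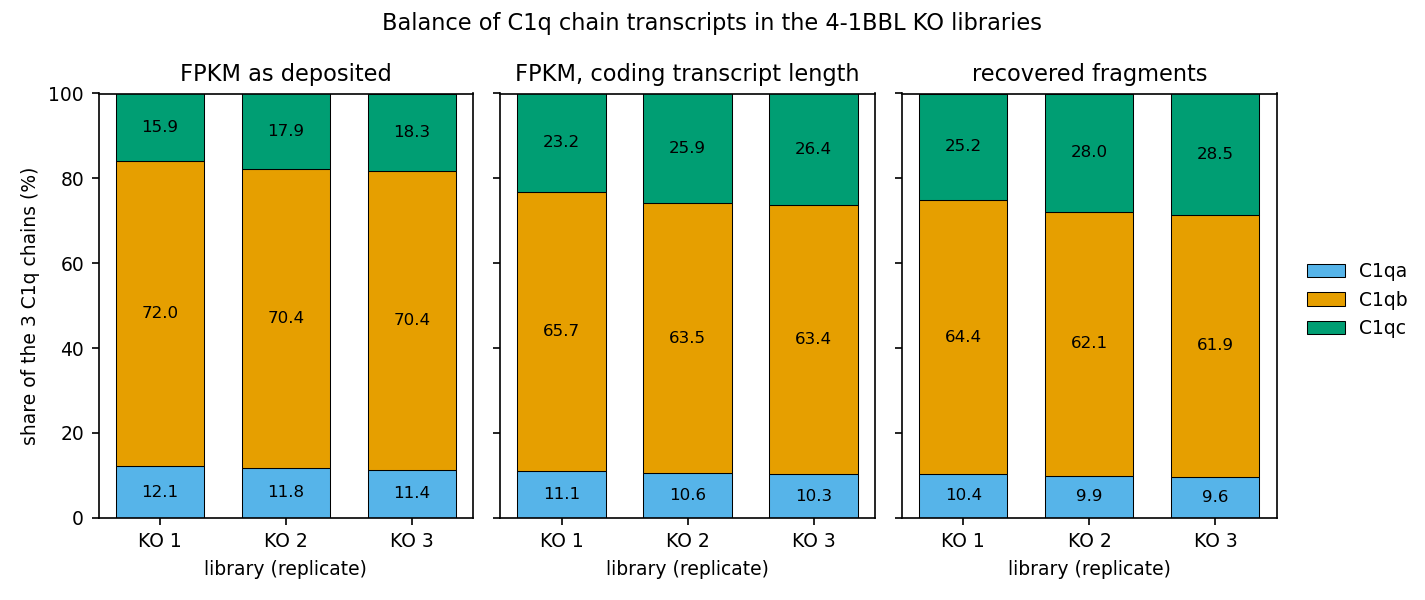
Share in percent (vertical axis) of C1qa, C1qb and C1qc in their summed level in each of the 3 KO libraries, as FPKM as deposited, as FPKM by the length of the longest coding transcript, and as recovered fragments. C1qb holds 61.9% to 72.003% in every bar, and the share of C1qc is larger on the middle and right scales.

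C3 and properdin moved in opposite directions. C3 (ENSMUSG00000024164, chromosome 17 at 57203970 to 57228136, minus strand) was at 9.84, 9.93 and 9.46 FPKM in WT replicates 1 to 3 and at 214.5, 212.8 and 217.9 FPKM in KO replicates 1 to 3. Its means of 9.74 ± 0.249 and 215.1 ± 2.56 FPKM (SD, n = 3) differ 22.1-fold, a log2 fold change of 4.33 ± 0.039 (SE) on the log2(FPKM + 1) scale. C3 was thus read in both groups, unlike the C1q chains. Cfp (ENSMUSG00000001128, X chromosome at 20925454 to 20931555, minus strand) was at 84.2, 84.7 and 83.4 FPKM in WT replicates 1 to 3 and at 32.3, 29.1 and 23.2 FPKM in KO replicates 1 to 3. Its means of 84.1 ± 0.649 and 28.2 ± 4.57 FPKM (SD, n = 3) make it 2.98-fold lower in KO, with a log2 fold change of -1.56 ± 0.11 (SE). In every WT library Cfp exceeded C3, by 8.53 to 8.82 times in FPKM, and in every KO library C3 exceeded Cfp, by 6.65 to 9.38 times.

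The 250 bases before the starts of C3 and Cfp are shown side by side because these genes were the highest members in KO and in WT. C3 is GRCm38.p6 chr17:57228137-57228386 and Cfp is chrX:20931556-20931805, both on the minus strand. The capitals in C3 mark TCAGCA, the Maf core TGCTGA read on the other strand, and TTGCGAAA, a match to TTGCNNAA, the core bound by C/EBP factors. In Cfp none of the motifs searched was found.
C3: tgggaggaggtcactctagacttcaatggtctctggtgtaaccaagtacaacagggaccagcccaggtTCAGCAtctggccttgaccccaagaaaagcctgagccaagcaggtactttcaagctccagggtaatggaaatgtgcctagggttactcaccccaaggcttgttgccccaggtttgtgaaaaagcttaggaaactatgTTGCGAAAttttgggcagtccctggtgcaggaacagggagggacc
Cfp: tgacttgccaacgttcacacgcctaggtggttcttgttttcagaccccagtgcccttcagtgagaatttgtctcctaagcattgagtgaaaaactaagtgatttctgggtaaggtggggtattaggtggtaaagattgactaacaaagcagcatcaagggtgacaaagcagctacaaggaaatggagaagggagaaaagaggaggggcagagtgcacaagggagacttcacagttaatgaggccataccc
Over the 6 members with an entry in the RefSeq promoter table (all but C1qa), TGCTGA was found on either strand in C1qb, C3, C3ar1 and C5ar1, against 16.1% of all 32851 promoter windows of this length. GAGGAA was found in C1qb and C1qc (23.3% of all windows) and TTGCNNAA in C3 alone (9.56%). The spacing preferred by STAT6, the transcription factor of IL-4 signalling, with 4 bases between TTC and GAA, was found in none of the 6 (5.85% of all windows). Both strands were searched, and no 2 of the matches overlap. A match of letters does not show a bound site. For C1qc, C3ar1 and C5ar1 the GENCODE start lies inside the window, 151, 4 and 202 bases upstream of the RefSeq start. The TGCTGA match of C5ar1, 17 to 12 bases upstream of the RefSeq start, thus lies inside the GENCODE gene.

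Both peptide receptors were higher in KO libraries. C3ar1 (ENSMUSG00000040552, chromosome 6 at 122847138 to 122856161, minus strand) was at 6.08, 6.69 and 6.26 FPKM in WT replicates 1 to 3 and at 77.5, 79.7 and 89.3 FPKM in KO replicates 1 to 3. Its means of 6.34 ± 0.312 and 82.2 ± 6.29 FPKM (SD, n = 3) differ 13.0-fold, with a log2 fold change of 3.50 ± 0.067 (SE). C5ar1 (ENSMUSG00000049130, chromosome 7 at 16246743 to 16259540, minus strand) was at 3.11, 3.19 and 2.67 FPKM in WT replicates 1 to 3 and at 33.6, 29.6 and 31.2 FPKM in KO replicates 1 to 3. Its means of 2.99 ± 0.278 and 31.5 ± 2.01 FPKM (SD, n = 3) differ 10.5-fold, with a log2 fold change of 3.03 ± 0.075 (SE). The groups lie far apart for either receptor. The ratio of C3ar1 to C5ar1 was 1.95, 2.10 and 2.34 in WT replicates 1 to 3 and 2.31, 2.69 and 2.86 in KO replicates 1 to 3, which overlap, and C3ar1 was the higher of the receptors in all 6 libraries.

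None of the 7 genes had overlapping values in WT and KO, where 67.4% of tested genes had none. Of them 6 were higher in KO, where 34.1% of tested genes were higher without overlap, and 1 was lower, where 33.4% of tested genes were lower without overlap. Since the genes were named from this contrast, nothing is read from that count. By limma, 60.8% of the 10843 tested genes had a Benjamini-Hochberg adjusted p under 0.05, with 30.6% higher and 30.2% lower in KO. Of these calls 50.4% were higher, and with the values scaled to TPM 60.04% were.

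The order of the members by level changed between the groups. In WT it was Cfp, C3, C3ar1 and C5ar1, with no overlap between neighbours, and then the C1q chains. In KO it was C3, C1qb, C3ar1, C5ar1, C1qc, Cfp and C1qa. There C1qc (27.5 to 29.6 FPKM) and Cfp (23.2 to 32.3 FPKM) overlap, and so do C5ar1 (29.6 to 33.6 FPKM) and Cfp. The lowest C5ar1 value (29.62) is next to the highest C1qc value (29.59) on the deposited FPKM. By coding transcript length C1qc was at 44.1 to 47.5 FPKM, above every C5ar1 and Cfp value, so its place in this order depends on the length used.

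The members also differed in how much they varied within a group. In WT the coefficient of variation was 0.771% for Cfp and 2.56% for C3, below the 1.79% and 3.05% that counting error alone gives on average at their fragment numbers. It was 4.92% for C3ar1 and 9.30% for C5ar1 in WT, against counting errors of 4.13% and 7.80%. In KO each of the 7 varied by more than counting error, from 1.19% for C3 (counting error 0.650%) to 16.2% for Cfp (3.12%). C1qa, C1qb and Cfp had their highest KO value in replicate 1 and their lowest in replicate 3, while C3ar1 had its lowest in replicate 1 and its highest in replicate 3.

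The rest of the complement system was mostly below the level for testing in these cells, at a share near that of all genes. Over all 54532 genes 10843 reached that level. Of 48 other complement genes, listed by role, 38 had a mean below 1 FPKM over the 6 libraries, 31 of them below 0.1, and 19 were at 0 in every library. Of the 10 that could be tested, 4 were higher and 4 lower in KO and 2 did not pass. Of these, C5ar2 and Cd59a reached the mean of 1 FPKM only through the group where they are high, and of the other 8 genes 3 were higher, 3 were lower and 2 did not pass. The median log2 fold change of the 10 was 0.07, and that of all tested genes 0.0055. Of all tested genes 60.8% passed.

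Among the proteases and early components, C1ra, a serine protease that joins C1q in the C1 complex, rose from 1.30 ± 0.170 to 6.77 ± 0.215 FPKM (SD, n = 3; log2 fold change 1.76 ± 0.080 SE, limma adjusted p = 2.62e-06). Its transcript is 97.9% identical to that of C1rb over 2432 bases, so fragments of the 2 genes could have been exchanged and the value is uncertain. The other C1 protease genes C1s1 and C1s2 did not exceed 0.121 and 0.123 FPKM in any library, and the components cleaved next, C4b and C2, did not exceed 0.376 and 0.278 FPKM. C4b has a near-identical copy, C4a (96.0% over 5378 bases), so its value is uncertain. Fcna, a ficolin of the lectin pathway, fell from 5.57 ± 0.876 to 3.197 ± 0.696 FPKM (log2 fold change -0.65 ± 0.14 SE, limma adjusted p = 0.00662). Cfb and Cfd are both needed to form the alternative pathway convertase. Cfb had 3 fragments in KO and 0 in WT, and Cfd had 0 in all 6 libraries. Exons of a read-through gene, Gm20547, cover 79.5% of the exon length of Cfb and 42.8% of that of C2, so fragments there may have gone uncounted.

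In the terminal pathway the gene of C5, Hc, had at most 0.0417 FPKM in any library, and C8g was the only one of 7 genes tested, at 1.05 ± 0.289 and 1.14 ± 0.505 FPKM (limma adjusted p = 0.868). Of 16 regulators 3 were tested. Clu (clusterin), an inhibitor of the terminal complex, rose from 3.10 ± 0.618 to 5.53 ± 0.724 FPKM (log2 fold change 0.68 ± 0.13 SE, limma adjusted p = 0.00391). Cr1l (Crry), the main rodent membrane inhibitor of C3 convertases, fell from 6.64 ± 0.260 to 3.99 ± 0.565 FPKM (-0.62 ± 0.091 SE, limma adjusted p = 0.000941), and it has a near-identical pseudogene copy, Crry-ps. Cd59a, which blocks the terminal complex, was at 2.21 ± 0.558 FPKM in WT and 0.725 ± 0.283 FPKM in KO, with no overlap, and was tested only because of its WT level, so no p is given.

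Among receptors and C1q-binding proteins, C5ar2, the further receptor of C5a, was at 0.283 ± 0.0199 FPKM in WT and 1.94 ± 0.154 FPKM in KO, a ratio of 6.84 with no overlap, and was tested only because of its KO level, so no p is given. It lies 2.59 kb from C5ar1 on chromosome 7, and its exons share no bases with C5ar1. Itgb2, the common beta chain of complement receptors 3 and 4, fell from 50.7 ± 0.666 to 36.6 ± 0.654 FPKM (-0.46 ± 0.039 SE, limma adjusted p = 5.59e-05). Itgam, the alpha chain of complement receptor 3, was at 2.46 ± 0.324 and 2.75 ± 0.629 FPKM (limma adjusted p = 0.547), and 68.7% of its exon length lies under another annotated gene, Gm49368, so it may be undercounted. C1qbp, a mostly mitochondrial protein that can bind C1q, rose from 110.4 ± 1.12 to 144.6 ± 5.77 FPKM (0.39 ± 0.042 SE, limma adjusted p = 0.000218). Vsig4, the complement receptor of the immunoglobulin family on resident macrophages, was at 0 in all 6 libraries. Cd93, once described as a C1q receptor, was below the level for testing, at 0.0241 ± 0.0417 in WT and 0.968 ± 0.0672 FPKM in KO.

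**Figure D3:**
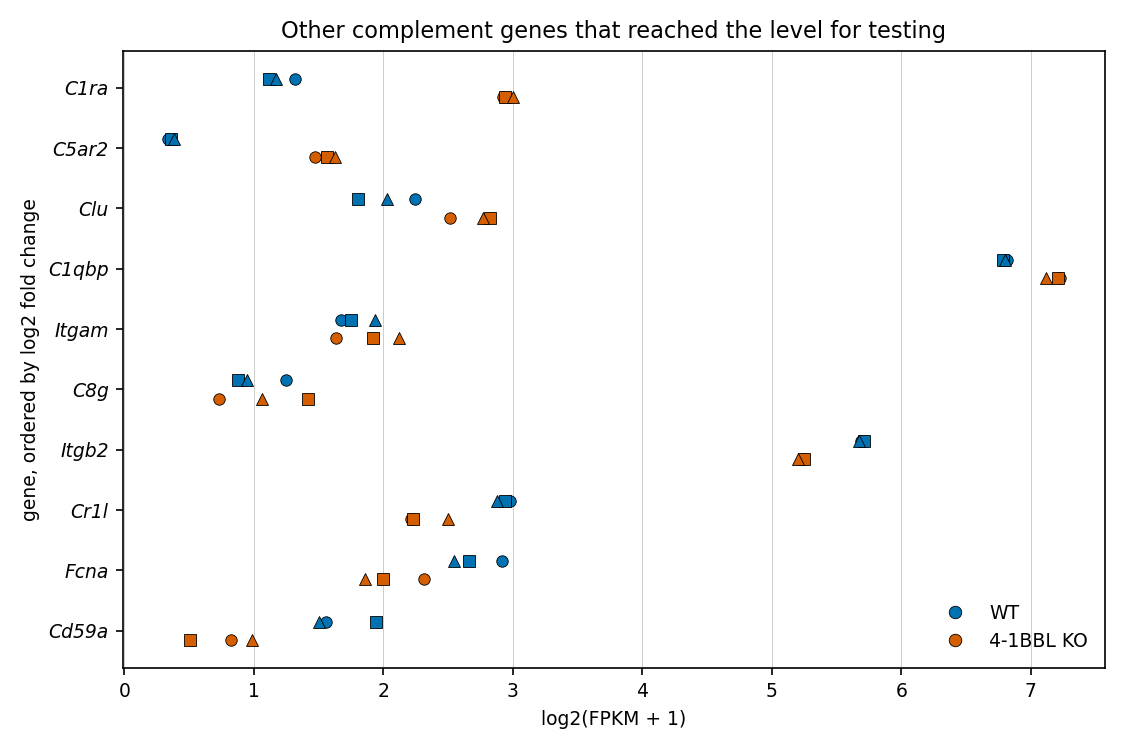
Level as log2(FPKM + 1) (horizontal axis) of the 10 other complement genes that were tested, ordered by log2 fold change, with 1 symbol per library (circles, squares and triangles for replicates 1, 2 and 3) and colour for the group. Groups overlap for Itgam and C8g and do not for the other 8, of which C1ra, C5ar2, Clu and C1qbp are higher in KO. Of all tested genes 67.4% had no overlap, and C5ar2 and Cd59a were tested only through the group where they are high.

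Transcription factors with described roles at macrophage C1q genes were read in the same libraries. Maf was at 0, 0.00585 and 0 FPKM in WT and at 15.6, 15.0 and 14.9 FPKM in KO replicates 1 to 3, from 1 and 8194 fragments. It was tested only because of its KO level, so no p is given. An antisense gene, Gm15655, covers 5.34% of its exon length. Like the C1q chains, Maf was at or next to 0 in every WT library and high in every KO library. Spi1, the gene of PU.1, did not pass, its WT mean being 135.4 ± 1.79 FPKM and its KO mean 137.3 ± 7.61 FPKM (log2 fold change 0.018, 95% interval -0.097 to 0.13, limma adjusted p = 0.763). Irf8, a myeloid interferon regulatory factor, rose from 5.05 ± 0.305 to 8.74 ± 0.202 FPKM (limma adjusted p = 7.00e-05). Whether these factors bear on the C1q levels was not tested.

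**Figure D4:**
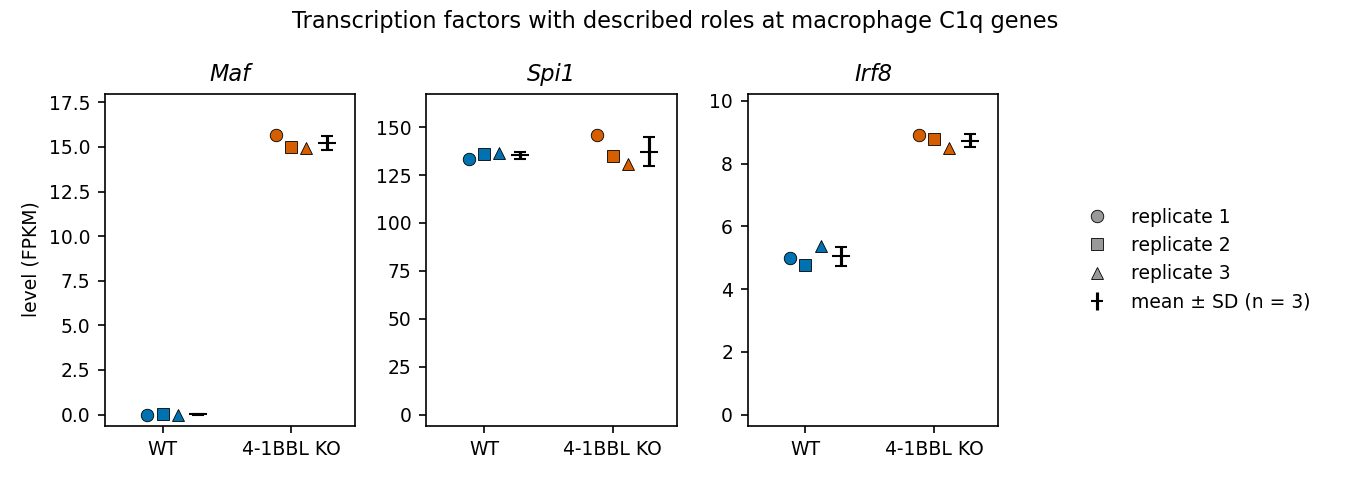
Level in FPKM (vertical axis, linear, a separate scale for each gene) of Maf, Spi1 and Irf8 in the WT and 4-1BBL KO libraries, 1 symbol per library, with mean ± SD (n = 3). Maf is near 0 in WT and at 14.9 to 15.6 in KO, while the groups overlap for Spi1.

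Of the genes around the C1q genes, 2 on the C1qa side were read. Epha8, 30.6 kb beyond C1qa, was at 0 in 5 libraries and at 0.0402 FPKM (5 fragments) in KO replicate 1. Zbtb40, 80.9 kb beyond C1qa, was at 1.83 ± 0.151 FPKM in WT and 3.26 ± 0.328 FPKM in KO (log2 fold change 0.59 ± 0.091 SE, limma adjusted p = 0.00122), so it was read in both groups and was higher in KO. The genes on the C1qb side were not analysed here.

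The genes whose levels lay closest to the mean profile of the 3 chains over the 6 libraries, by Euclidean distance on log2(FPKM + 1), were Maged1 (0.17), Arl4c (0.35), Egln3 (0.42), Selenop (0.47) and Mrc1 (0.75). Their KO means ran from 29.7 FPKM for Mrc1 to 47.3 FPKM for Selenop, and their WT means from 0 for Mrc1 to 0.0921 FPKM for Egln3. The chains themselves lay at 0.86 (C1qc), 1.77 (C1qa) and 2.62 (C1qb), farther than these 5 genes, since their KO levels differ from one another.

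Other cell types that make these components were looked for by their markers. Of 8 fibroblast markers, included because fibroblasts make C3, 6 were at 0 in every library (Col1a1, Col1a2, Col3a1, Dcn, Lum and Thy1), and their summed level was 0.0410 to 0.1496 FPKM in WT and 0.0572 to 0.126 in KO. Of 8 neutrophil markers, included because neutrophils store properdin, Ly6g, S100a9 and Ngp were at 0 in every library, and the summed level was 0.0675 to 0.141 FPKM in WT and 0.710 to 1.26 in KO. S100a8 made up most of that sum in KO replicates 1 and 2, at 0.655 and 1.24 FPKM, and Camp was the higher in replicate 3, at 0.414 against 0.301 FPKM. The sums for mast cell, dendritic cell and lymphocyte markers did not exceed 0.216, 0.315 and 0.413 FPKM in any library. Macrophage markers differed in either direction. Adgre1 (F4/80) was at 11.8 ± 0.625 FPKM in WT and at 268.0 ± 6.07 in KO (limma adjusted p = 6.85e-09). Cd14, a coreceptor for lipopolysaccharide, was at 292.4 ± 5.68 FPKM in WT and 45.8 ± 2.64 in KO (limma adjusted p = 4.85e-08). The efferocytosis receptor gene Mertk, tested only because of its KO level and given with no p, was at 0.00720 ± 0.0125 and 4.24 ± 0.154 FPKM. The part of these marker differences in the complement values was not tested.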

How the data were processed

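The authors deposited 1 table of FPKM per library, with 54532 Ensembl genes. Tools named in the submitters' processing notes are featureCounts (1.5.0-p3) and HISAT2 (2.0.5), with mm10 as the genome build. Not given in the sources used here are the annotation release, the strand setting and how multi-mapping reads were treated. Directional and non-directional library types are both named by the labels' protocol. Symbols and positions come from GENCODE M21 (54495 identifiers matched, 37 did not). FPKM multiplied by joined exon length stepped in whole fragments, and 97.8% to 98.04% of values up to 200 fragments lay within 0.1 of a whole number in each library, against 20% by chance, which gave the depths, the floor of 3 fragments per library and the voom alternative.

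Testing used limma (3.58.1, under R 4.3.3) with its trend option for genes averaging 1 FPKM or more, on log2(FPKM + 1) values, KO minus WT, 3 libraries against 3, two-sided, with Benjamini-Hochberg adjustment over all 10843. The scale understates changes of low genes. Replicates differed beyond sampling noise (mean chi-square of 4.82 to 9.73 per gene, 1 degree of freedom), and all 6 were used. The step was tested on simulated data. Near-identical copies were sought with BLAST+ 2.17.0+ (at least 95% identity over 80% of the shorter transcript and 150 bases) and none was found for the 7 members. Promoter sequences are RefSeq's, on GRCm38.p6, the same assembly as mm10.

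The members and gene lists were chosen with earlier results of these data known. Named are the 7 members, up to 4 genes per complement list with the largest change past an adjusted p of 0.05, any averaging 20 FPKM or more, the transcription factors, the 5 genes nearest to the C1q profile and Tnfsf9, except for genes that are not reported here. Other named genes (C8g, Itgam, Cd93, Vsig4, Cfb, Cfd, Hc, C1s1, C1s2, C4b, C2, the neighbours of the C1q genes, sex-linked genes and single markers) were chosen after their values were seen. Alternatives covered the pseudocount, the filter, scaling, the replicate block, recovered fragments and each library left out.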

Additional observations from a re-analysis of the deposited data

How the results depend on the processing

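Over 13 alternatives to the fit, 0 of 91 log2 fold changes of the members reversed. For the chains at or near 0 in WT their size depends on the scale: with a pseudocount of 0.1 it was 10.2 for C1qb, 8.15 for C1qc and 7.28 for C1qa, and the highest values came from recovered fragments with voom, where scale, method and offset change together. Over all alternatives it ranged from 6.81 to 12.4 for C1qb, 4.84 to 11.2 for C1qc and 4.23 to 9.02 for C1qa, against 4.31 to 4.52 for C3, 3.44 to 3.72 for C3ar1, 2.97 to 3.43 for C5ar1 and -1.66 to -1.43 for Cfp. The number of other complement genes called was 4 higher and 4 lower of 10 tested, where 60.8% of all tested genes passed. Without a filter it was 7 higher and 5 lower, and with a mean of at least 5 FPKM, where fewer genes are tested, it was 1 higher and 2 lower. With any 1 library left out it was 3 to 4 higher and 4 lower: without any 1 of the KO libraries C5ar2 fell under the filter. The calls over all genes also moved, from 6594 to 7414 without a filter and 4710 with a mean of at least 5 FPKM. With any 1 library left out they were 5835 to 6408. The share of tested genes called is not given for these filters and left-out libraries, so nothing is read from the complement counts. Of the 4 and 4, C5ar2 and Cd59a were tested only through the group where they are high. Spi1 passed only under quantile normalization, with a log2 fold change of 0.18.

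The mean share of C1qb among the 3 chains was 70.9% in FPKM, 62.8% in recovered fragments and 64.2% by coding transcript length. That of C1qc was 17.3%, 27.2% and 25.2%, and that of C1qa 11.8%, 9.96% and 10.6%.

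Libraries with the same replicate number showed no shared deviation (correlations across genes of -0.034, 0.047 and -0.032). Pairs with different numbers were at -0.060 to 0.075. No pairing by number was thus seen, which does not show that there was none. With recovered fragments and voom 6818 genes were called. With the replicate block 6194 genes were called against 6594, and 4 and 4 of the other complement genes. Depth limits the genes near 0: a count of 0 in WT allows a C1qb level of up to 0.129 FPKM, counting error only.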
